A study of Mus musculus with 6 samples.

Results

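A set of 10 genes of the glycolytic route is described here: the hexokinases Hk1 and Hk2, the phosphofructokinases Pfkl, Pfkm and Pfkp, the bifunctional regulator Pfkfb3, aldolase A (Aldoa), phosphoglycerate kinase (Pgk1), the muscle-type pyruvate kinase gene (Pkm) and lactate dehydrogenase A (Ldha). They were chosen by name as 10 of the 53801 gene rows of the count table. No measured value enters that rule, but the choice was made with earlier results of these data known. Cells of the stromal vascular fraction, the mixed non-adipocyte cells of a fat pad, came from the inguinal fat of wild-type and Ythdf1 knockout mice. They were put through adipogenic differentiation in culture, and RNA was taken at day 4. Each genotype gave 3 libraries, which the series calls biological replicates, and Ythdf1 codes for a cytoplasmic reader of N6-methyladenosine in RNA. The labels give a knockout with no strain, allele, age or sex, and do not say which part of Ythdf1 was removed, whether fat of several mice was pooled or how many cells reached the adipocyte state. Both genotypes had the same induction, and no undifferentiated or untreated sample was analysed here.

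Glycolysis turns glucose into pyruvate in the cytosol. Hexokinase traps glucose as glucose 6-phosphate, phosphofructokinase commits it to the lower route, and pyruvate kinase makes pyruvate, and these are the steps at which flux is classically controlled. Lactate dehydrogenase reduces pyruvate to lactate and so renews the NAD+ that the route consumes. In adipocytes glycolysis also supplies glycerol 3-phosphate and acetyl units for triglyceride, and white adipocytes are known to release lactate.

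Libraries held 16619605 to 20089138 counts. CPM are counts scaled to a library total of 1000000, and on these raw totals 3 counts stood for 0.149 to 0.181 CPM. All other CPM values use library totals adjusted by the scaling described under processing. Ythdf1 itself was counted 820, 754 and 892 times in the knockout libraries and 1114, 1005 and 1056 times in the wild-type libraries, a log2 fold change of -0.50 ± 0.08 (standard error) with an edgeR adjusted p of 0.000378. Reads on the gene therefore remained, and this count checks the labels only in part. Genotype separated the libraries widely: 44.3% of the 14816 genes tested passed an adjusted p of 0.05, 22.6% as higher and 21.7% as lower in the knockout, and the median log2 fold change of all of them was 0.01. The 10 adipocyte markers listed, among them genes of the mature fat cell, were all higher in the knockout, with summed CPM of 12410 to 17346 against 2169 to 3428. In such bulk RNA, more cells of a type and more RNA of a gene per cell cannot be told apart, and this holds for each difference given below. All adjusted p-values below are from the quasi-likelihood test of edgeR with Benjamini-Hochberg adjustment over all genes tested, and all fold changes are knockout over wild type.

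Upstream sequences of 4 of these genes are shown because they set a hexokinase that was higher in the knockout (Hk2) beside one that did not pass the test (Hk1), and because Pfkfb3 and Ldha are textbook targets of hypoxia-inducible factors. Each is the 250 bases before a RefSeq transcription start on GRCm38.p6, 5′ to 3′ on the gene's strand, and capitals mark ACGTG on either strand (written CACGT on the other). ACGTG is one form of the core of the element that hypoxia-inducible factors bind, and other forms were not searched. CACGTG, which contains ACGTG, is the E-box read by factors such as Myc and USF.
Hk2 at chr6:82774455-82774704, minus strand: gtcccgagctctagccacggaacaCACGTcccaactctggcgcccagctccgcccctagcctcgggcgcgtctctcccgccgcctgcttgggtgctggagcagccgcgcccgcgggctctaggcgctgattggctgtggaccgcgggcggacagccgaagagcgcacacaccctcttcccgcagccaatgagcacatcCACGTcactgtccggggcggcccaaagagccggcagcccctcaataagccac
Hk1, first start, at chr10:62379909-62380158, minus strand: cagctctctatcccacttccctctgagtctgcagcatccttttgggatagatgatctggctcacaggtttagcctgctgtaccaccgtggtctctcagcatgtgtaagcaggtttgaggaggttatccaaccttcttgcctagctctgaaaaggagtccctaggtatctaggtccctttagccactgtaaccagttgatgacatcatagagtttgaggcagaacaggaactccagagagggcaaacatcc
Hk1, second start, at chr10:62340422-62340671, minus strand: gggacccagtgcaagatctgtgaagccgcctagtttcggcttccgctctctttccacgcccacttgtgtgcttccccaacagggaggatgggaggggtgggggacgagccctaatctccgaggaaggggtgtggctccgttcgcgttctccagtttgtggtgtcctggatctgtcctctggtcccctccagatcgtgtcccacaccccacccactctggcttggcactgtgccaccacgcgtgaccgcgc
Pfkfb3, first start, at chr2:11553930-11554179, minus strand: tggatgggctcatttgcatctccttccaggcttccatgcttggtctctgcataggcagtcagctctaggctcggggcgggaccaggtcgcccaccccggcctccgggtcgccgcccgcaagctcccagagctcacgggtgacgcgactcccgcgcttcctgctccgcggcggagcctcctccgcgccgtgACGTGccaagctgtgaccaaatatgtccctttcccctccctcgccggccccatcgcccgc
Pfkfb3, second start, at chr2:11502091-11502340, minus strand: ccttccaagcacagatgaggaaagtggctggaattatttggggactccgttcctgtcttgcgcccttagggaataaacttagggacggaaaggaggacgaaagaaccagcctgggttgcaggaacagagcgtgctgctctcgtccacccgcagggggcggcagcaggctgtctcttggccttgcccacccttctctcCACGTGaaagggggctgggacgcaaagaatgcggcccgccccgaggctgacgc
Ldha, first start, at chr7:46845554-46845803, plus strand: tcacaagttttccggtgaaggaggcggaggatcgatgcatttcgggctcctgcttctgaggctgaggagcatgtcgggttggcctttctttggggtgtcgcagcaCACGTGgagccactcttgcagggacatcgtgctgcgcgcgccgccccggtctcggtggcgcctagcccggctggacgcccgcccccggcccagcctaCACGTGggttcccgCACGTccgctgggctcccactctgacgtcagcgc
Ldha, second start, at chr7:46846832-46847081, plus strand: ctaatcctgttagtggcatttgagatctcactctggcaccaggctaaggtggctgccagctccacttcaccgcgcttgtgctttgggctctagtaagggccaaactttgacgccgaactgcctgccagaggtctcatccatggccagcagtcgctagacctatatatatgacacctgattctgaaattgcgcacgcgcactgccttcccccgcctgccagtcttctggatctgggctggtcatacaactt
The Hk2 window held 2 matches to ACGTG, each Pfkfb3 window held 1 and the first Ldha window held 3, while both Hk1 windows and the second Ldha window held 0. The second Pfkfb3 match was a CACGTG, as were 2 of the 3 Ldha matches. RefSeq gave 19 windows for the 10 genes. ACGTG stood in 10 of them, from 7 of the genes, against 16.6% of all 32851 such windows, and CACGTG stood in 3, from 3 genes, against 6.0%. Windows of one gene can overlap, and 2 of the 10 with ACGTG are Aldoa windows that share a single site. Pfkl and Pfkp, both higher in the knockout, had no match to ACGTG, whereas Pgk1, which did not pass the test, had 2 in its single window. These matches describe letters only and say nothing about binding in these cells.

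All 10 genes were well counted, and 7 were higher in the knockout, 0 were lower and 3 did not pass the test. Among all genes tested, 22.6% were higher. Pfkfb3, Hk2 and Aldoa rose by more than 2-fold, Pfkp and Pfkl by less than 2-fold, and Ldha and Pkm by less than 1.5-fold. Hk1, Pfkm and Pgk1 did not pass. The median log2 fold change of the 10 genes was 0.66, against 0.01 over all genes tested. In 7 of them, the same ones that passed, each knockout library lay above each wild-type library, a separation seen in 27.9% of all genes tested (55.2% when counted in either direction). The 10 genes together took 1.01% to 1.19% of all knockout counts and 0.693% to 0.741% of the wild-type counts.

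**Figure D1:**
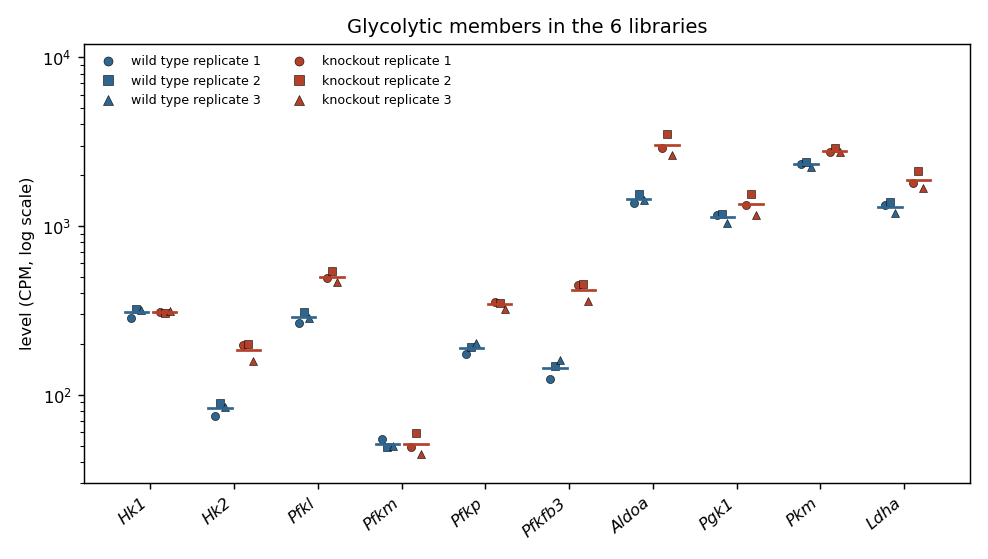
CPM of the 10 genes on a logarithmic axis, with one point for each library and bars at the mean of 3 libraries per genotype. The knockout points of Hk2, Pfkl, Pfkp, Pfkfb3, Aldoa, Pkm and Ldha lie above all wild-type points, and those of Hk1, Pfkm and Pgk1 overlap them.

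Hexokinases carry out the first step, and Hk1 is the form found in most tissues, while Hk2 is the form of insulin-responsive muscle and fat. Hk2 (6:82725025-82774454, minus strand, GRCm38) was at 196, 199 and 158 CPM in the knockout libraries and 74.8, 89.7 and 84.5 CPM in the wild type. The lowest knockout library was well above the highest wild-type one. Hk2 rose 2.22-fold (95% interval 1.88 to 2.63), a log2 fold change of 1.15 ± 0.11 with an edgeR adjusted p of 9.44e-06. Hk1 (10:62268855-62379908, minus strand) was at 309.7, 304 and 314 CPM in the knockout and 285, 320.4 and 319 CPM in the wild type. Its groups overlapped completely, with the knockout libraries inside the wild-type range. The log2 fold change of Hk1 was 0.01 ± 0.09 (edgeR adjusted p = 0.969), and its 95% interval of 0.875-fold to 1.15-fold leaves out a change of the size seen for Hk2.

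Within a library, the log2 ratio of Hk2 to Hk1 counts was -0.66, -0.61 and -0.99 in the knockout and -1.93, -1.84 and -1.92 in the wild type, a difference of 1.14 between the means. The exact 2-sided permutation test over the libraries gave p = 0.1, the smallest that 3 against 3 allow, and 0.125 after adjustment over 5 such ratios. Per length of exon, as TPM (counts per kilobase of merged exon, scaled to a library total of 1000000), Hk2 took 44.7% ± 4.06 (SD, n = 3) of the summed level of Hk1, Hk2, Hk3 and Hkdc1 in the knockout and 27.5% ± 0.715 in the wild type. The Hk1 share was 52.6% ± 2.59 and 71.6% ± 0.623. With the length of the longest coding transcript in place of merged exons, which was added after seeing the data, the Hk2 share of Hk1 and Hk2 was 31.6% ± 3.01 and 17.3% ± 0.495, so the direction held and the level of the share depended on the length used. Hk3, the hexokinase known from white blood cells, was a minor part at 2.65% ± 1.48 and 0.875% ± 0.161.

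Hk3 rose with a log2 fold change of 2.04 ± 0.35 (edgeR adjusted p = 0.00079), from 1.48 to 1.81 CPM in the wild type to 4.56, 4.72 and 10.6 CPM in the knockout. Knockout replicate 3 stood highest for Hk3. The 8 listed macrophage markers moved in the same libraries: their summed CPM was 278, 280.1 and 742 in the knockout and 158, 105 and 86.4 in the wild type. Of the 8, 7 passed as higher, against 22.6% of all genes tested, and none was at 0 in any library. Their part in the Hk3 result was not tested. For Hk2, Pfkfb3, Aldoa and Ldha knockout replicate 3 was the lowest of the knockout libraries, and without it their log2 fold changes were 1.26, 1.64, 1.15 and 0.60.

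Phosphofructokinase works as a tetramer of liver-type (Pfkl), muscle-type (Pfkm) and platelet-type (Pfkp) subunits. Pfkl (10:77986947-78010083, minus strand) was at 492, 544 and 466 CPM in the knockout and 267, 309 and 286 CPM in the wild type. Pfkp (13:6579768-6648777, minus strand) was at 357, 349.8 and 323 CPM and at 173, 193 and 202 CPM. For both genes the genotypes were separate. Pfkl rose 1.74-fold (95% interval 1.49 to 2.03), with a log2 fold change of 0.80 ± 0.10 and an edgeR adjusted p of 7.44e-05. Pfkp rose 1.81-fold (1.57 to 2.09), with a log2 fold change of 0.86 ± 0.10 and an edgeR adjusted p of 2.92e-05. The muscle form Pfkm (15:98092589-98132451, plus strand) went another way, at 49.1, 59.1 and 44.6 CPM in the knockout and 54.8, 49.2 and 49.7 CPM in the wild type. Here the knockout held both the highest and the lowest library. Its log2 fold change was -0.01 ± 0.11 (edgeR adjusted p = 0.957), with a 95% interval of 0.842-fold to 1.17-fold that lies below the intervals of Pfkl and Pfkp.

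The within-library log2 ratio of Pfkm to Pfkl was -3.32, -3.20 and -3.38 in the knockout and -2.28, -2.65 and -2.52 in the wild type, and the means differed by -0.82. Pfkp to Pfkm differed by 0.87. Both ratios were separate between genotypes, at the smallest p that the exact permutation test allows (0.1, adjusted 0.125). By contrast Pfkp to Pfkl overlapped, with means of -0.54 ± 0.09 (SD) in the knockout and -0.60 ± 0.09 in the wild type and an exact p of 0.5. The liver and platelet forms thus differed between genotypes by like amounts, and the muscle form took a smaller share of the total. Pfkm was 13.1% ± 0.876 of the summed phosphofructokinase TPM in the knockout and 21.2% ± 2.18 in the wild type, Pfkl 64.7% ± 0.563 and 59.3% ± 1.90, and Pfkp 22.1% ± 1.19 and 19.5% ± 1.11. With the longest coding transcript as length, Pfkp stood well above Pfkm in both genotypes (35.3% and 7.52% in the knockout, 32.5% and 12.7% in the wild type), because its merged exons are much longer than that transcript.

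**Figure D2:**
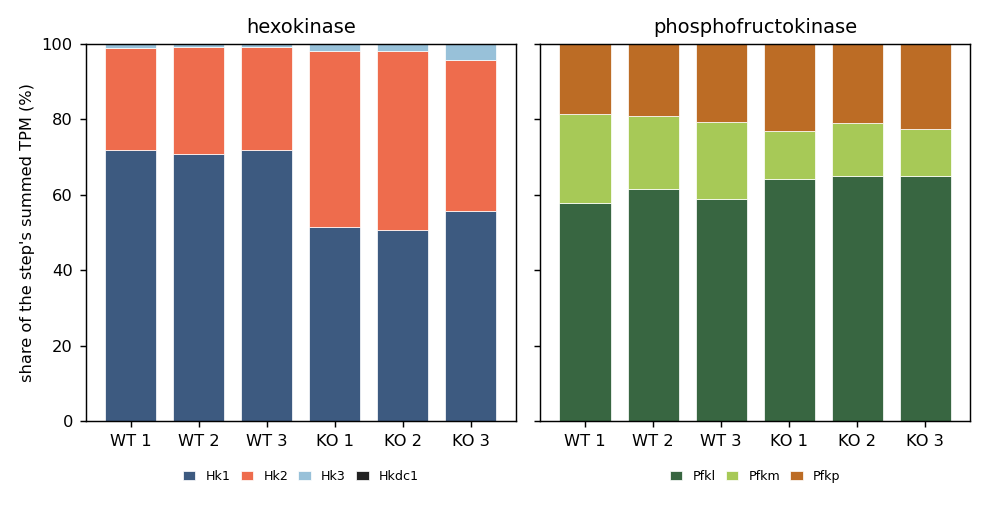
Share (%) of each isozyme gene in the summed TPM of the hexokinase genes Hk1, Hk2, Hk3 and Hkdc1 and of the phosphofructokinase genes (Pfkl, Pfkm, Pfkp), as one stacked bar for each of the 6 libraries. Hk2 takes 40.1% to 47.4% in the knockout and 27.0% to 28.3% in the wild type, and Pfkm takes 12.5% to 14.1% and 19.5% to 23.7%.

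Summed over isozymes, both steps were higher in the knockout. Hk1 and Hk2 together were at 253, 238 and 239 TPM in the knockout and 172, 184 and 195 TPM in the wild type, 1.33-fold apart, a smaller difference than for Hk2 alone because Hk1 was the larger part. The 3 phosphofructokinase genes together were at 421, 433 and 405 TPM against 260.1, 264 and 275 TPM, 1.57-fold apart. Neither sum overlapped between genotypes, and each reached the smallest p of the exact permutation test, 0.1 before and after adjustment over the 2 sums.

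Pfkfb3 makes fructose 2,6-bisphosphate, the strongest known activator of phosphofructokinase, and its form of the enzyme has far more kinase than phosphatase activity. It had the largest log2 fold change of the 10 genes. Pfkfb3 (2:11471433-11554077, minus strand) was at 445, 451 and 362 CPM in the knockout and 124, 147 and 161 CPM in the wild type. The lowest knockout library held more than 2-fold the CPM of the highest wild-type one. The rise was 2.91-fold (95% interval 2.41 to 3.52), a log2 fold change of 1.54 ± 0.12 with an edgeR adjusted p of 3.17e-06. A predicted antisense locus within it, Gm10851, was at 8.81 to 10.2 CPM against 1.58 to 2.72 CPM. It shares 0 bases of exon with Pfkfb3. Without a stated strand setting, reads from introns of Pfkfb3 cannot be told apart from reads of Gm10851. That locus was at most a small fraction of the CPM of Pfkfb3.

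Of 6 listed genes that make or remove fructose bisphosphates beside Pfkfb3, 4 could be tested, and 2 were higher, 1 lower and 1 did not pass (median log2 fold change 0.70, against 0.01 over all genes). Among all genes tested, 22.6% were higher and 21.7% lower. Pfkfb1, the liver-type form, rose from 9.56 ± 1.08 to 34.5 ± 1.34 CPM (SD, n = 3), a log2 fold change of 1.85 ± 0.12 with an edgeR adjusted p of 8.46e-07. Tigar, a phosphatase that lowers fructose 2,6-bisphosphate, rose as well, from 9.03 ± 0.972 to 19.8 ± 1.91 CPM (1.13 ± 0.13 on the log2 scale, edgeR adjusted p = 4.82e-05). Pfkfb4, a form known from testis and tumours, fell from 22.3 ± 0.647 to 14.1 ± 2.53 CPM (-0.65 ± 0.14, edgeR adjusted p = 0.00222). Pfkfb2, the heart-type form, stood at 0.26 ± 0.14 on the log2 scale without passing (edgeR adjusted p = 0.151). Per length, Pfkfb3 was the most abundant of the family, at 201 ± 18.1 TPM in the knockout and 70.1 ± 9.62 TPM in the wild type, against 31.1 ± 0.862 and 8.74 ± 0.89 TPM for Pfkfb1. The fructose bisphosphatases Fbp1 and Fbp2, which run the step backwards, stayed under 1 CPM in all libraries and were not tested.

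Aldolase splits fructose 1,6-bisphosphate into the 2 triose phosphates, one of which is the precursor of glycerol 3-phosphate. Aldoa (7:126795234-126800751, minus strand) was at 2898, 3495 and 2638 CPM in the knockout and 1366, 1547 and 1422 CPM in the wild type. All knockout libraries were above all wild-type ones, and knockout replicate 2 was the highest. Aldoa rose 2.08-fold (95% interval 1.73 to 2.51), with a log2 fold change of 1.06 ± 0.12 and an edgeR adjusted p of 4.20e-05. Per length of exon Aldoa was the most abundant of the 10 genes in the knockout. In CPM, Pkm stood above it in knockout replicate 3 (2751 against 2638 CPM). The Aldoa share of all counts was 0.269% to 0.348% in the knockout and 0.138% to 0.151% in the wild type. A second Ensembl identifier with the same symbol was kept apart, with knockout counts of 71 to 76 and wild-type counts of 17 to 30. The brain form Aldoc also rose, from 18.9 ± 0.836 to 29.3 ± 2.91 CPM (0.63 ± 0.11, edgeR adjusted p = 0.000632).

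Phosphoglycerate kinase makes the first ATP of the lower route. Pgk1 (X:106187100-106203699, plus strand) was at 1329, 1556 and 1168 CPM in the knockout and 1159.6, 1174 and 1042 CPM in the wild type. Knockout replicate 3 lay between the wild-type libraries, so the groups overlapped. Its log2 fold change of 0.26 ± 0.12 did not pass (edgeR adjusted p = 0.0972), and its 95% interval reached 1.44-fold. Without knockout replicate 3 it did pass, at 0.36 (edgeR adjusted p = 0.0218).

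Pyruvate kinase ends the route. Pkm (9:59656368-59679375, plus strand) was at 2733, 2895 and 2751 CPM in the knockout and 2331, 2389 and 2250.3 CPM in the wild type. The genotypes were separate, though the fold between them was small. Pkm rose 1.202-fold (95% interval 1.04 to 1.39), a log2 fold change of 0.27 ± 0.10 with an edgeR adjusted p of 0.0444. This call was lost on leaving out any single library, with adjusted p-values of 0.05002 (without knockout replicate 3) to 0.125 (without wild-type replicate 2), and it is the weakest of the 7. A predicted transcript on the same strand, Gm49759, shares 15.3% of the exon length of Pkm and was itself higher, at 157 to 198 CPM against 109.8 to 118 CPM. How reads over both were counted is not given in the sources used here. Pkm makes 2 splice forms, M1 of differentiated muscle and brain and M2 of most other cells, which gene counts do not tell apart. Of 6 factors known to steer that choice, 3 passed as lower and 0 as higher (median log2 fold change -0.26). Among all genes tested, 21.7% were lower. Ptbp1, which favours M2, was at -0.23 ± 0.09 without passing (edgeR adjusted p = 0.0579). Hnrnpa2b1, the most abundant of the 6, was at 0.05 ± 0.09 (edgeR adjusted p = 0.656) and Rbm4 at 0.37 ± 0.27 (edgeR adjusted p = 0.299), neither passing. Hnrnpa1 fell by 0.43 on the log2 scale (edgeR adjusted p = 0.00243), from 286 ± 13.9 to 212 ± 12.1 CPM. The liver and red cell gene Pklr stayed under 1 CPM.

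Lactate dehydrogenase A, the form that favours lactate, was at 1803, 2134 and 1670.2 CPM in the knockout and 1326, 1396 and 1194 CPM in the wild type (Ldha, 7:46841475-46855627, plus strand). All knockout libraries lay above the wild type. Ldha rose 1.43-fold (95% interval 1.195 to 1.715), with a log2 fold change of 0.52 ± 0.12 and an edgeR adjusted p of 0.00423. The heart form Ldhb rose further, from 26.2, 21.2 and 21.8 CPM in the wild type to 51.8, 72.6 and 39.7 CPM in the knockout (1.24 ± 0.21, edgeR adjusted p = 0.00145). In the ratio of Ldhb to Ldha the genotypes were separate, with mean log2 ratios of -5.13 ± 0.26 (SD) in the knockout and -5.82 ± 0.20 in the wild type, at the smallest exact permutation p of 0.1 (adjusted 0.125). Even so Ldha held 94.3% of their summed TPM in the knockout and 96.4% in the wild type.

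Among 10 listed genes of lactate handling other than Ldha, 8 could be tested, and 5 were higher, 2 lower and 1 did not pass (median log2 fold change 0.86). The shares over all genes tested were 22.6% higher and 21.7% lower. The carriers did not move together. Slc16a1 (MCT1), a proton-linked carrier of lactate and pyruvate, rose from 103 ± 4.81 to 241 ± 4.97 CPM, a log2 fold change of 1.22 ± 0.08 (edgeR adjusted p = 1.25e-06). Slc16a3 (MCT4), the carrier known for lactate export from glycolytic cells, fell from 267 ± 11.8 to 212 ± 8.22 CPM (-0.33 ± 0.09, edgeR adjusted p = 0.00844), a call lost without wild-type replicate 2 (0.0563). The listed chaperones of this carrier family split as well. Basigin (Bsg) rose with a log2 fold change of 0.51 (edgeR adjusted p = 0.0070), and embigin (Emb) fell by 0.45 (edgeR adjusted p = 0.00234). Hcar1, the lactate receptor through which lactate is known to restrain lipolysis in fat cells, rose from 4.15 ± 1.25 to 12.5 ± 2.38 CPM (1.60 ± 0.22, edgeR adjusted p = 0.000162). Ldhd, the mitochondrial D-lactate dehydrogenase, rose at a low level, from 1.38 ± 0.181 to 6.57 ± 0.835 CPM (2.24 ± 0.23, edgeR adjusted p = 1.48e-05). The testis gene Ldhc had 0 counts.

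The other enzymes of the route give the setting of these steps. Of 18 listed, 14 could be tested, and 7 were higher, 0 were lower and 7 did not pass, with a median log2 fold change of 0.46 against 0.01 over all genes. Higher calls made up 22.6% of all genes tested and lower calls 21.7%. The 7 include Hk3, described above, and Eno1b, a copy of Eno1 whose counts are uncertain, described below. Gpi1, which acts between hexokinase and phosphofructokinase, rose from 822 ± 50.1 to 1582 ± 168 CPM (0.94 ± 0.11, edgeR adjusted p = 4.58e-05). Between aldolase and Pgk1, triose phosphate isomerase (Tpi1) rose by a log2 fold change of 0.42 (edgeR adjusted p = 0.00789) and Gapdh by 0.50 (edgeR adjusted p = 0.00234). Pgam1, which follows Pgk1, had 0.39 (edgeR adjusted p = 0.00569).

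The main enolase gene, Eno1, was abundant and, like Pgk1, did not pass. Eno1 was at 1907, 2156 and 1845 CPM in the knockout and 2056, 2089 and 1839 CPM in the wild type, with a log2 fold change of -0.02 ± 0.11 (edgeR adjusted p = 0.908). Its near-identical copy Eno1b (99.5% identity) was at 111, 155 and 113 CPM against 1.49 to 2.04 CPM, a log2 fold change of 6.20. Counts between such copies are uncertain, so the sum is the safer value. Eno1, Eno1b and the copy Gm4735 together were at 2188 ± 196 CPM in the knockout and 1999 ± 135 CPM in the wild type, 1.09-fold apart. Copies of the 10 genes themselves held at most 0.31% of the counts of their parent gene. Pgk1-rs7 and Gm5537 match Pgk1 at 100% identity over 1255 and 1252 bases. As the treatment of multiply matching reads was not stated, low counts on such copies cannot show whether Pgk1 lost reads.

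**Figure D3:**
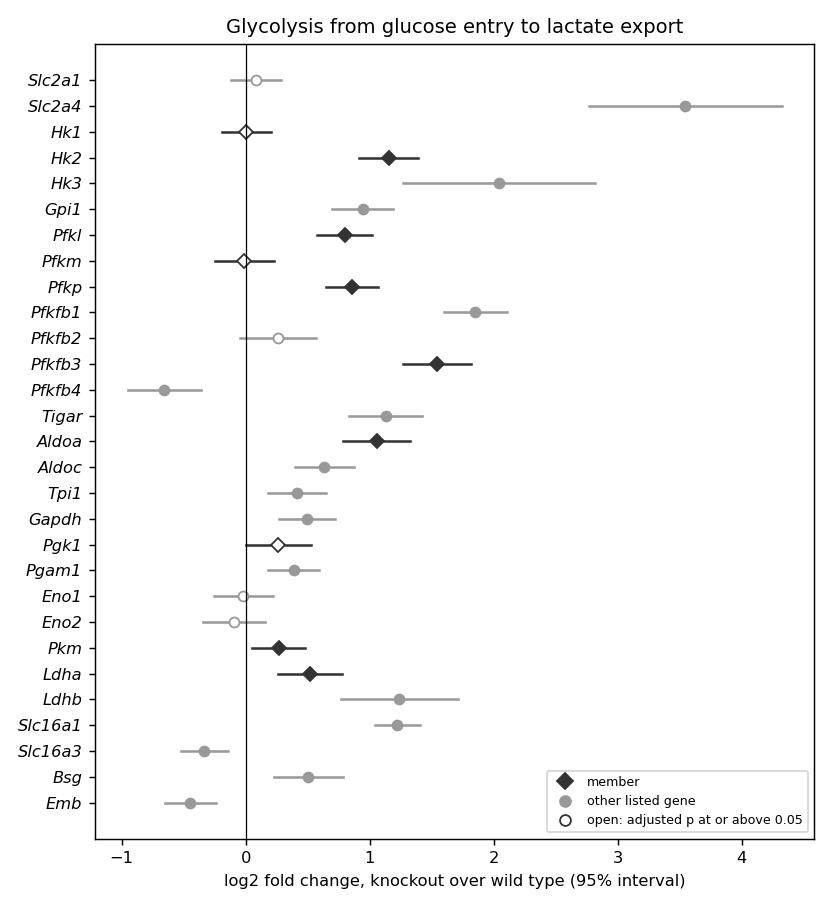
Log2 fold change, knockout over wild type, with its 95% interval for 29 genes of the route in pathway order. Diamonds are the 10 genes described here and open symbols did not pass an adjusted p of 0.05, so that Hk1 (0.01), Pfkm (-0.01) and Pgk1 (0.26) stand open beside Hk2 (1.15), Pfkl (0.80) and Pfkp (0.86).

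Compared per length, Aldoa, Pgk1, Pkm and Ldha were far more abundant than the hexokinase and phosphofructokinase genes and Pfkfb3. In the knockout the order of TPM was Aldoa (3737 ± 369), then Pgk1 (2176 ± 214), Ldha (2042 ± 165) and Pkm (2025 ± 45.0), whose libraries overlapped from one to the next. Pfkl (272 ± 9.14), Pfkfb3 (201 ± 18.1), Hk1 (132 ± 7.94), Hk2 (112 ± 10.6), Pfkp (92.8 ± 3.98) and Pfkm (55.1 ± 5.42) followed, each with a range of its own. In the wild type Pgk1 (1841 ± 93.4) and Aldoa (1822 ± 53.7) overlapped at the top, and Pkm (1707 ± 38.5), Ldha (1447 ± 75.4), Pfkl (158 ± 6.89) and Hk1 (133 ± 8.16) came next with separate ranges. Pfkfb3 (70.1 ± 9.62), Pfkm (56.4 ± 4.99), Pfkp (52.0 ± 4.46) and Hk2 (51.0 ± 3.49) closed the order, and each overlapped its neighbour. Hk2 thus stood last in the wild type and eighth in the knockout, and the highest of the 10 exceeded the lowest 36.1-fold and 67.8-fold. These positions rest on merged exon length, which includes rarely used exons.

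Glucose enters through facilitative transporters before hexokinase acts. Of 6 listed, 2 were higher, 1 was lower and 3 did not pass (median log2 fold change 0.17). These counts stand beside 22.6% higher and 21.7% lower among all genes tested. Slc2a4 (GLUT4), the insulin-responsive transporter of muscle and fat and also one of the 10 adipocyte markers, rose from 10.2 ± 4.11 to 119 ± 24.3 CPM, with a log2 fold change of 3.55 ± 0.32 (edgeR adjusted p = 0.000185). Slc2a1 (GLUT1), the basal transporter, measured 237 ± 15.1 CPM in the wild type and 251 ± 13.7 CPM in the knockout, without passing (0.08 ± 0.09, edgeR adjusted p = 0.506). The fat-type pair of transporter and hexokinase, Slc2a4 and Hk2, was therefore higher in the knockout, while for the widely used pair, Slc2a1 and Hk1, the 95% intervals were 0.921-fold to 1.22-fold and 0.875-fold to 1.15-fold. Slc2a10 fell by 1.07 on the log2 scale (edgeR adjusted p = 0.00029). Slc2a8 passed at 0.33 (edgeR adjusted p = 0.0246), but not without knockout replicate 2 (0.0696) or 3 (0.0529) or wild-type replicate 1 (0.0826) or 2 (0.0728).

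Transcription factors known to act on glycolytic genes were listed too, and of 11, 6 were higher, 1 was lower and 4 did not pass (median log2 fold change 0.44). Over all genes tested, 22.6% were higher and 21.7% lower. Hif1a, the oxygen-regulated subunit whose protein drives Hk2, Pfkfb3, Pgk1 and Ldha in hypoxia, fell from 779.6, 712 and 606 CPM in the wild type to 252, 218 and 309 CPM in the knockout (-1.43 ± 0.14, edgeR adjusted p = 1.22e-05). Its relative Epas1 rose from 89.5 ± 34.6 to 247 ± 22.1 CPM (1.47 ± 0.27, edgeR adjusted p = 0.00416). Mlxipl (ChREBP), the carbohydrate-responsive factor of liver and fat, rose from 6.34 ± 3.36 to 77.6 ± 6.44 CPM (3.61 ± 0.33, edgeR adjusted p = 0.000146), and its partner Mlx rose by a log2 fold change of 0.45 (edgeR adjusted p = 0.0045). Esrra, a nuclear receptor of oxidative and glycolytic genes, rose by 1.16 (edgeR adjusted p = 2.76e-05) and its coactivator Ppargc1a by 2.97 (edgeR adjusted p = 7.08e-05). Myc had -0.18 ± 0.09 and did not pass (edgeR adjusted p = 0.128). These are RNA levels, and hypoxia-inducible factors are controlled mainly at the level of protein.

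Of 16 other genes known to respond to low oxygen, 8 were higher, 3 were lower and 5 did not pass (median log2 fold change 0.36). Egln3 (1.23), Vegfa (0.98), Ndrg1 (0.82) and Bnip3 (0.81) rose, with edgeR adjusted p-values of 5.24e-05, 1.52e-05, 0.000817 and 0.000329. P4ha2 (-1.34), P4ha1 (-0.66) and Adm (-0.47) fell, with edgeR adjusted p-values of 1.49e-06, 0.000147 and 0.00244. P4ha1 and P4ha2 code for collagen prolyl hydroxylase subunits and Adm for the peptide adrenomedullin. These 8 higher and 3 lower calls of 16 compare with 22.6% higher and 21.7% lower among all genes tested.

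**Figure D4:**
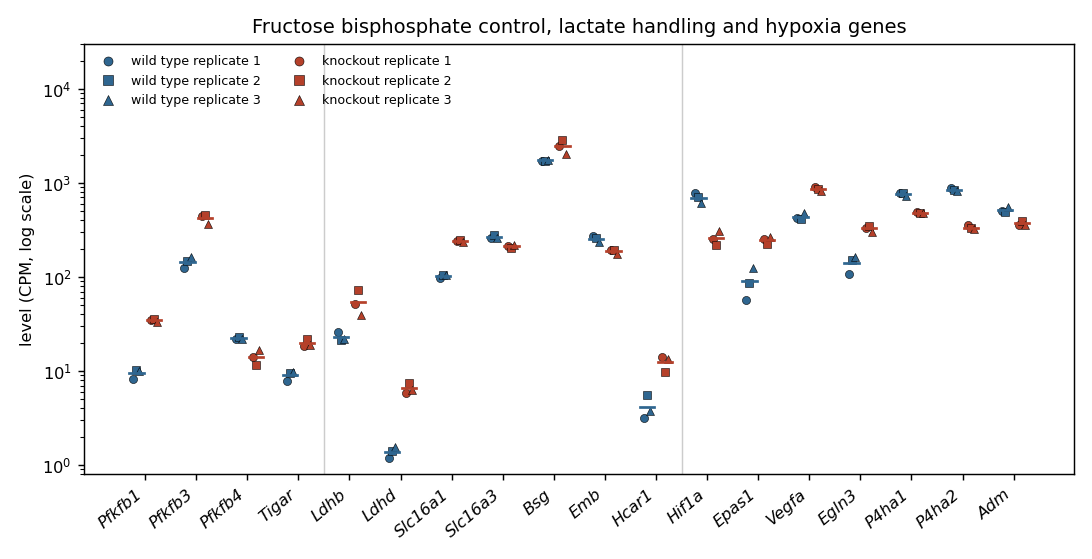
CPM on a logarithmic axis of Pfkfb1, Pfkfb3, Pfkfb4 and Tigar, of 7 genes of lactate handling and of Hif1a, Epas1 and 5 genes known to respond to low oxygen, with one point for each library. Knockout points lie above wild type for Pfkfb3 and Slc16a1 and below it for Pfkfb4, Slc16a3, Hif1a and P4ha2.

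Markers of other cells were read beside these results. The summed adipocyte markers, most of which is Fabp4, were at 13824, 17346 and 12410 CPM in knockout replicates 1 to 3 and at 2169, 3354 and 3428 CPM in wild-type replicates 1 to 3. The 10 glycolytic genes summed to 10612, 11987 and 9894 CPM in the knockout and 7161, 7614 and 7010 CPM in the wild type. In the knockout both sums were highest in replicate 2 and lowest in replicate 3, as were Hk2, Pfkl, Pfkm, Pfkfb3, Aldoa, Pgk1 and Ldha singly. Hk1, Pfkp and Pkm did not follow this order, nor did the markers Plin1 and Cfd. In the wild type the marker sum was lowest in replicate 1 and the sum of the 10 genes in replicate 3. Hk1, Hk2, Pfkl, Pfkp, Pfkfb3 and Aldoa were lowest in wild-type replicate 1, Pgk1, Pkm and Ldha in replicate 3 and Pfkm in replicate 2. The part of adipocyte number in the differences was not tested. Skeletal muscle fibres are rich in Aldoa, Pfkm and Pkm. Their 10 markers summed to 6.31 to 7.50 CPM in the knockout and 8.71 to 18.7 CPM in the wild type, mostly Acta1 (0.935 to 7.35 CPM) and Tnnt3 (2.88 to 5.71 CPM). Myh4 had 0 counts in each knockout library, and Ckm had 0 to 7 counts over all libraries. Smooth muscle markers, all 5 of which fell, summed to 92.7 to 114 CPM against 621 to 938 CPM, and the 7 epithelial markers to 38.9 to 51.9 CPM against 64.6 to 78.8 CPM, with 5 lower and Krt19 holding most of the sum. Of 7 progenitor markers 3 were lower (2215 to 2382 against 2452 to 2624 CPM), and of 5 endothelial markers 1, Tek, was higher (summed 23.8 to 33.9 against 21.6 to 27.7 CPM). These marker counts stand beside 21.7% lower and 22.6% higher among all genes tested. The Tek call (edgeR adjusted p = 0.0345) was lost without knockout replicate 1 (0.0961) or 2 (0.083) or wild-type replicate 1 (0.106) or 2 (0.126). Without knockout replicate 2 the endothelial marker Cdh5 passed as higher instead (log2 fold change 0.71, edgeR adjusted p = 0.0425). The 5 red cell markers reached at most 1.41 CPM in sum. The part of these cells in the differences of the 10 genes was not tested.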

How the data were processed

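RNA of 3 Ythdf1 knockout and 3 wild-type cultures was sequenced after removal of ribosomal RNA, as pairs of 150 bp reads per the labels' protocols. The authors deposited raw counts per Ensembl gene, whole numbers with no normalization. STAR, featureCounts and the builds mm10 and GRCm38 are named in the submitters' processing notes, and versions, annotation, strand setting and treatment of multiply matching reads were not stated in the sources used here. Symbols, coordinates and exon lengths came from GENCODE M21, which held 53706 of 53801 identifiers.

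Counts were tested with edgeR 4.0.16 (filterByExpr with minimum count 10 and minimum total 15, TMM scaling, robust legacy quasi-likelihood F test, 2-sided, genotype alone, Benjamini-Hochberg at 0.05 over 14816 genes). CPM values are relative to the scaled totals of these genes, except those of the floor, which use the raw library totals. TPM values are counts per kilobase of merged exon scaled to 1000000 per library. Isozyme ratios used counts plus 0.5 and exact permutation tests. The fit was tested on simulated data. The floor of 3 counts covers counting error only.

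All 10 genes were named. For each other list, the plan was to name up to 6 passing genes with the smallest p. It added genes against the list's direction and the most abundant that did not pass. That plan was not kept throughout. Ero1l, Mlxip, Nek2, Srsf3, Bnip3l, Arnt and Slc16a7 fell under it and were left out, while Ndrg1, Mlx and Myc were named. Most genes of the cell type marker lists that fell under it were also not given with values. Some genes are not reported here. Members and lists were chosen with earlier results of these data known. Promoter windows came from RefSeq on GRCm38.p6, without the 50 bases after the start, and no protein sequence was used here. Alternatives were DESeq2 1.42.0, limma-voom (limma 3.58.1), other scalings and filters, a replicate block, a library-suffix term, and leaving out each library.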

Additional observations from a re-analysis of the deposited data

How the results depend on the processing

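Hk2, Pfkl, Pfkp, Pfkfb3, Aldoa and Ldha kept their direction and their side of the threshold in each alternative that could be fitted (17, or 16 for Aldoa, which is removed with the most abundant genes), and Hk1 and Pfkm passed in none. Pgk1 passed with limma-voom (adjusted p = 0.0451) and without knockout replicate 3. Pkm lost its call in 11 of 16 alternatives, among them upper-quartile scaling (adjusted p = 0.0971), no filter (0.0532) and a term for the library suffix (0.0536). Members called higher numbered 6 to 7 with 1 library left out and 5 to 8 otherwise, the 5 without the most abundant genes, where Aldoa and Pkm are removed, and those called lower were 0 throughout. Genes called higher ranged from 2741 to 3395 and lower from 2535 to 3279 with 1 library left out, and from 2989 to 3943 and 2993 to 3886 otherwise. The summed phosphofructokinase log2 difference was 0.66, and 0.76 without dividing by length. With the longest coding transcript as length, added after seeing the data, it was 0.71, and that of Hk1 and Hk2 went from 0.41 to 0.25, by the other weights this gives the isozymes. The labels do not say whether same-numbered libraries were paired. Deviations of same-numbered libraries correlated at -0.126, 0.0117 and -0.143, and those of differently numbered ones at -0.0516 to 0.153. Such weak correlations cannot show whether cultures were handled in pairs. With a replicate block, 6 of the 10 genes were higher, and Pkm did not pass (adjusted p = 0.098). With 3 libraries a group, exact tests of ratios and sums cannot fall below 0.1.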

Other observations

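Several loci that overlap these genes were counted apart and are given as values only. Within Pfkfb3, the predicted genes Gm10851 and Gm37975 had log2 fold changes of 2.12 (edgeR adjusted p = 1.41e-05) and 2.40 (edgeR adjusted p = 0.000365). Gm49759, on the strand of Pkm, was at 191, 157 and 198 CPM in the knockout and 109.8, 112 and 118 CPM in the wild type, a log2 fold change of 0.68 (edgeR adjusted p = 0.000223), against 0.27 for Pkm. Fam57b, which shares 25 bases of exon with Aldoa on the other strand, had 3.22, and the second Aldoa identifier 1.55 (edgeR adjusted p = 0.000931). Pitrm1 shares 748 bases of exon with Pfkp and did not pass.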
